A study of Mus musculus with 5480 samples.

Results

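A set of 9 genes that carry, convert and bind vitamin A and its products was followed through the mesenchyme of the developing mouse lung. They are Rbp4, Stra6 and Crabp1, which carry, import and bind retinoids; the alcohol dehydrogenases Adh1 and Adh7 and the reductase Dhrs3, which act between retinol and retinaldehyde; and the retinaldehyde dehydrogenases Aldh1a1, Aldh1a2 and Aldh1a3. They were chosen by name, and 9 of 9 were found among the 18072 genes of the count table. Cells take up retinol from its blood carrier, the product of Rbp4, with help of the receptor encoded by Stra6. Dehydrogenases oxidise retinol to retinaldehyde and then to retinoic acid, the ligand of nuclear receptors, while Dhrs3 works in the reverse direction and returns retinaldehyde to retinol. In the lung, retinoic acid is known for its part in the formation of alveoli, and fibroblasts of the alveolar wall store retinoids beside lipid.

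Single cells had been sorted from distal mouse lung as mesenchyme, which holds the fibroblasts, the muscle cells of airways and vessels and the pericytes that wrap capillaries. There were 10 mice, 1 female and 1 male in each of 5 groups: embryonic day 18.5 (E18.5), postnatal days 1, 7 and 21 (P1, P7, P21), all labelled normal, and P7 labelled hyperoxia, the breathing of oxygen-rich air. Strain, genotype and the oxygen level are not given in the labels, and every mouse is otherwise described alike. The authors named 16 subtypes of cells, and each gene is followed across them, the ages and hyperoxia.

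The table held 5480 cells, of which 71 came from sorts for the endothelial marker CD31 or the immune marker CD45 and were kept under their subtype labels. The median cell had 774305 reads, in a range from 39358 to 5177020. Summing the reads of a mouse within a subtype, where it had at least 10 cells, gave 64 libraries of 14 to 425 cells from 15 subtypes. Levels are given in CPM, the reads of a gene scaled to a common total, for these libraries after TMM scaling, first for the female and then for the male mouse. For each of 8 marker lists the median summed level in the subtypes it names was above the median of the other libraries (7492 against 594 CPM for alveolar and 7123 against 420 CPM for adventitial fibroblasts). Early airway smooth muscle, however, reached 19773 CPM of the myofibroblast list against 3696 to 7565 CPM in myofibroblasts themselves. Since normal and hyperoxia mice share a sequencing run only through a few cells, effects of the run and of hyperoxia cannot be told apart. Nearly all cells of the 4 normal males are from 1 run, so the male values below compare ages within it. For the normal females, nearly all cells of P7 and of P21 are from separate runs, and those of E18.5 and P1 from another. In females the run thus changes with age from P1 to P7 and from P7 to P21. The age tests use both mice and have no term for the run. Cells in hyperoxia also had more detected genes, with a median per alveolar cell of 4028 and 5167 against 2782 and 2628 at P7 in normal air, and per adventitial cell of 4529 and 5910 against 3012 and 3030. With 1 mouse of each sex in a group, p-values measure the spread between these mice, and intervals cover only the sampling of cells within a mouse.

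Adh7 and Adh1 are neighbours on mouse chromosome 3, and the bases before their starts are shown because the genes had different patterns in the same cells. The third is from Rarb, a retinoic acid receptor gene, and shows the element through which retinoic acid acts on that gene. All are from RefSeq (GRCm38.p6), read 5′ to 3′ on the strand of the gene, and cover the 250 bases before the start: chr3:138217523-138217772 on the plus strand for Adh7, chr3:138277335-138277584 on the plus strand for Adh1 and chr14:16575477-16575726 on the minus strand for Rarb. Capitals mark the letters of a CCAAT box and a TATA box (TATAAA) on either strand in Adh7, and, in Rarb, the half-sites GGTTCA and AGTTCA with the 5 bases between them.
Adh7: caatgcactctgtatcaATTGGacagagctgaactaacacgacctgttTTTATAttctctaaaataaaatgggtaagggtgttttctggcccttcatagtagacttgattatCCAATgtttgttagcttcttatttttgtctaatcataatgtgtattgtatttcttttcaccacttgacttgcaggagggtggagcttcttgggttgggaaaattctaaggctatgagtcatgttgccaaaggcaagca
Adh1: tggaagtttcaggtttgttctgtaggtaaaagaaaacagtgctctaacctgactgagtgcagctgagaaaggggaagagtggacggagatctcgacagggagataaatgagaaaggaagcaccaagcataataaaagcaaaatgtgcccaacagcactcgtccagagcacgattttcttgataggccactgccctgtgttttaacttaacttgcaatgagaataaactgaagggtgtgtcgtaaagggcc
Rarb: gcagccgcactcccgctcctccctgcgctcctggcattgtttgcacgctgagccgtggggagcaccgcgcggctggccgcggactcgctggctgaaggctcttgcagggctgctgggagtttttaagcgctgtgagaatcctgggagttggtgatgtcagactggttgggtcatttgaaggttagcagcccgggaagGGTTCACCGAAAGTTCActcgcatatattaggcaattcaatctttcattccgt

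The starts of Adh7 and Adh1 lie 59812 bases apart. The letters TATAAA or their reverse complement were found in 2 of the 15 promoter windows of members (1 each of Adh7 and Rbp4) and in 13.6% of the 32851 promoter windows of the table, each from 250 bases before to 50 bases after a start. CCAAT, on either strand, was found in 7 of the 15 windows, of 6 members (Adh7, Aldh1a1, Aldh1a2, Dhrs3, Rbp4 and Stra6), and in 37.4% of all windows. AGGTCA, a form of the half-site that retinoid receptors bind, was in 0 of 15 member windows and in 16.3% of all windows. Single half-sites of other forms, such as the GGTTCA and AGTTCA of Rarb, were not counted, so members may hold them. The repeat of half-sites found in Rarb, with the same spacing, was in 2 of all windows (0.00609%) and in none of the members' windows. These are matches of letters only.

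**Figure D1:**
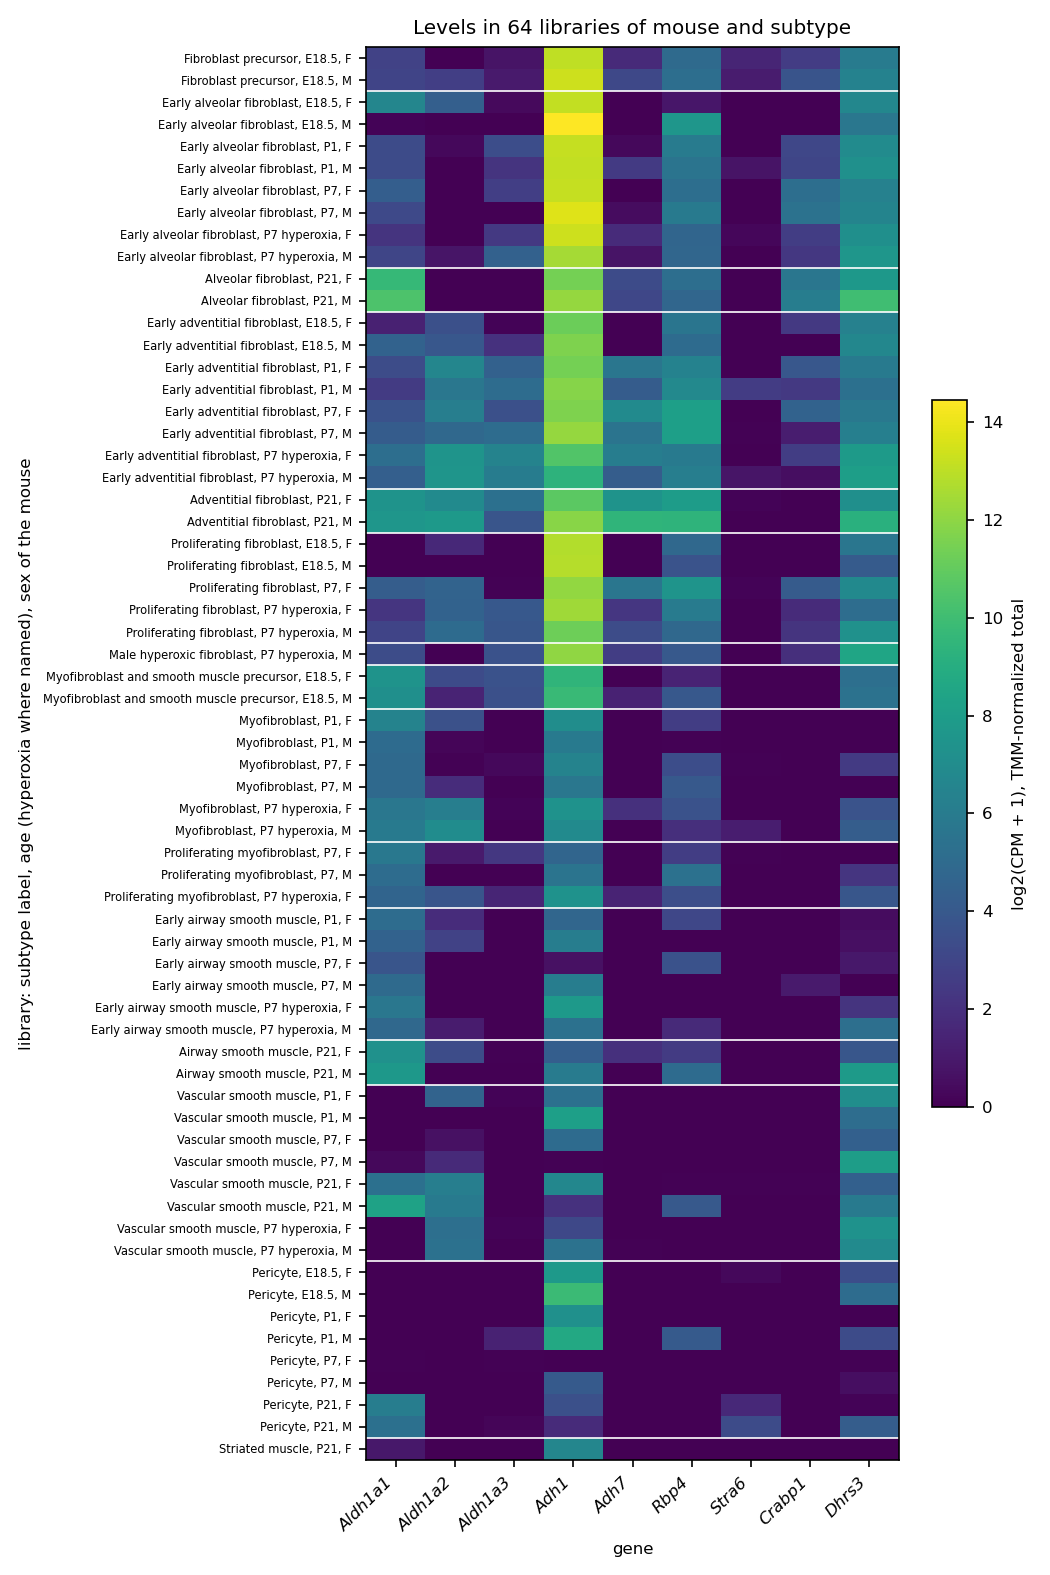
Levels of the 9 genes (columns) in the 64 libraries of mouse and subtype (rows, F and M for the sex of the mouse), as log2(CPM + 1). Adh1 fills the fibroblast rows, with a peak of 22347 CPM, and Aldh1a1 stands out in the P21 rows.

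Adh1, a class I alcohol dehydrogenase, was the member with the highest level per length of its joined exons in alveolar and adventitial fibroblasts at P21. It held 1650 ± 604 and 1260 ± 639 CPM per kilobase there (SD, n = 2). It reached 10 CPM in 58 of the 64 libraries. Fibroblast precursors, the main fibroblasts before birth, held 8730 and 10444 CPM, with a read in 99.8% and 99.4% of cells. Early alveolar fibroblasts held 8825 and 22347 CPM at E18.5, from 14 and 24 cells, 9165 and 8773 at P1 and 9309 and 13882 at P7. The precursors and the E18.5 cells overlapped each of the others, while both P7 mice were above both P1 mice. The alveolar fibroblasts of P21 were below all of them, at 2731 and 4637 CPM, and still had a read in 91.7% and 89.9% of cells. Early adventitial fibroblasts, the cells of the sheath around airways and vessels, were lower at each of these ages, at 2322 and 3199, 2796 and 3597, and 3262 and 4607 CPM at E18.5, P1 and P7. At P21 adventitial fibroblasts held 1805 and 3822 CPM, which overlapped the range of alveolar fibroblasts.

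Contractile cells and pericytes carried little Adh1. Precursors of myofibroblasts and smooth muscle at E18.5 held 711 and 902 CPM, and myofibroblasts held 135 and 59.6 CPM at P1 and 87.2 and 51.1 CPM at P7. Pericytes went from 215 and 912 CPM at E18.5 and 149 and 425 at P1 to 0 and 16.3 CPM at P7 and 10.6 and 2.41 at P21. The early values came from 3 and 2 cells with a read before birth and from 2 in each mouse at P1, so a small number of cells set them. Between P1 and P7 the pericyte level was lower by 5.84 on the log2 scale (SE 1.77, edgeR adjusted p = 1), without overlap of the mice.

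Adh7, a class IV enzyme with high activity for retinol, was found in adventitial fibroblasts alone at 10 CPM or more, apart from 1 library of proliferating fibroblasts at P7 with 50.6 CPM from 2 of 17 cells. It had 0 reads in 26 and 29 early adventitial cells of E18.5. By counting of reads, without the sampling of cells, it could hold up to 0.122 and 0.109 CPM. It stood at 49.5 and 17.1 CPM at P1, 121 and 46.1 at P7 and 171 and 700 at P21. At P21 a read was found in 28.8% and 28.2% of cells, so the level came from a minority of them. Alveolar fibroblasts held 8.83 and 7.42 CPM at P21 from 3 and 1 cells, and no more than 4.43 CPM before. Fibroblast precursors of E18.5 held a mean of 5.10 CPM, with the mice between 0.623 and 2.07 CPM per kilobase, so Adh7 was not absent before birth. Among the adventitial cells of the female at P21 that could be thinned to a common depth, all 42 with an Adh7 read also had an Adh1 read, as did 97 of the 109 without one.

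Rbp4, the carrier of retinol in plasma, marked adventitial fibroblasts too. In adventitial cells it stood at 47.5 and 31.8 CPM at E18.5, 83.0 and 111 CPM at P1, 280 and 288 at P7 and 257 and 666 at P21, with a read in 64.7% and 60.0% of cells at P21. The mice of E18.5, P1 and P7 did not overlap, and those of P7 and P21 did. Alveolar cells stayed between 26.2 and 64.2 CPM from P1 to P21. The male value of 188 CPM in early alveolar cells of E18.5 came from 1 of 24 cells. Per length, Rbp4 was second to Adh1 in adventitial fibroblasts of P21, at 343.5 ± 215 CPM per kilobase, and at 23.5 ± 5.69 in alveolar fibroblasts.

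Stra6, the membrane receptor for the plasma carrier, did not reach 10 CPM in any library. Its highest value was 8.80 CPM in pericytes of the male at P21, beside 2.14 CPM in the female, with a read in 2.86% of the cells of the female and 2.67% of the male. In each P21 mouse 1 pericyte held over 99% of the reads.

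Crabp1, which binds retinoic acid in the cytoplasm, was highest in alveolar fibroblasts. It had 0 reads in the 38 early alveolar cells of E18.5. By counting of reads, without the sampling of cells, it could hold up to 0.811 CPM (female) and 0.250 CPM (male). It stood at 7.30 and 7.16 CPM at P1, 36.3 and 42.7 at P7 and 49.7 and 69.6 at P21, and no 2 of these ages overlapped. Reads were found in 2.49% and 2.80% of cells at P1 and in 27.6% and 15.9% at P21. At the shares of P1, 38 cells could hold no read by the sampling of cells alone. In the male at P21 a single cell held 61.6% of the reads. Adventitial cells held 22.7 and 1.21 CPM at P7 and less than 0.01 CPM at P21.

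Dhrs3, which is itself switched on by retinoic acid in many tissues, was spread over fibroblasts and vascular smooth muscle. Alveolar cells held 102 and 51.8 CPM at E18.5, 123 and 151 CPM at P1, 81.9 and 90.1 at P7 and 209 and 1023 at P21. Adventitial cells held 80.2 and 103, 62.0 and 39.9, 54.4 and 74.4, and 147 and 579 CPM at the same ages. The P21 mice were above the P7 mice in both, and the male was the higher of the P21 mice. Vascular smooth muscle at P7 differed between the mice, at 20.6 and 259 CPM, and airway smooth muscle at P21 at 13.3 and 232 CPM.

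**Figure D2:**
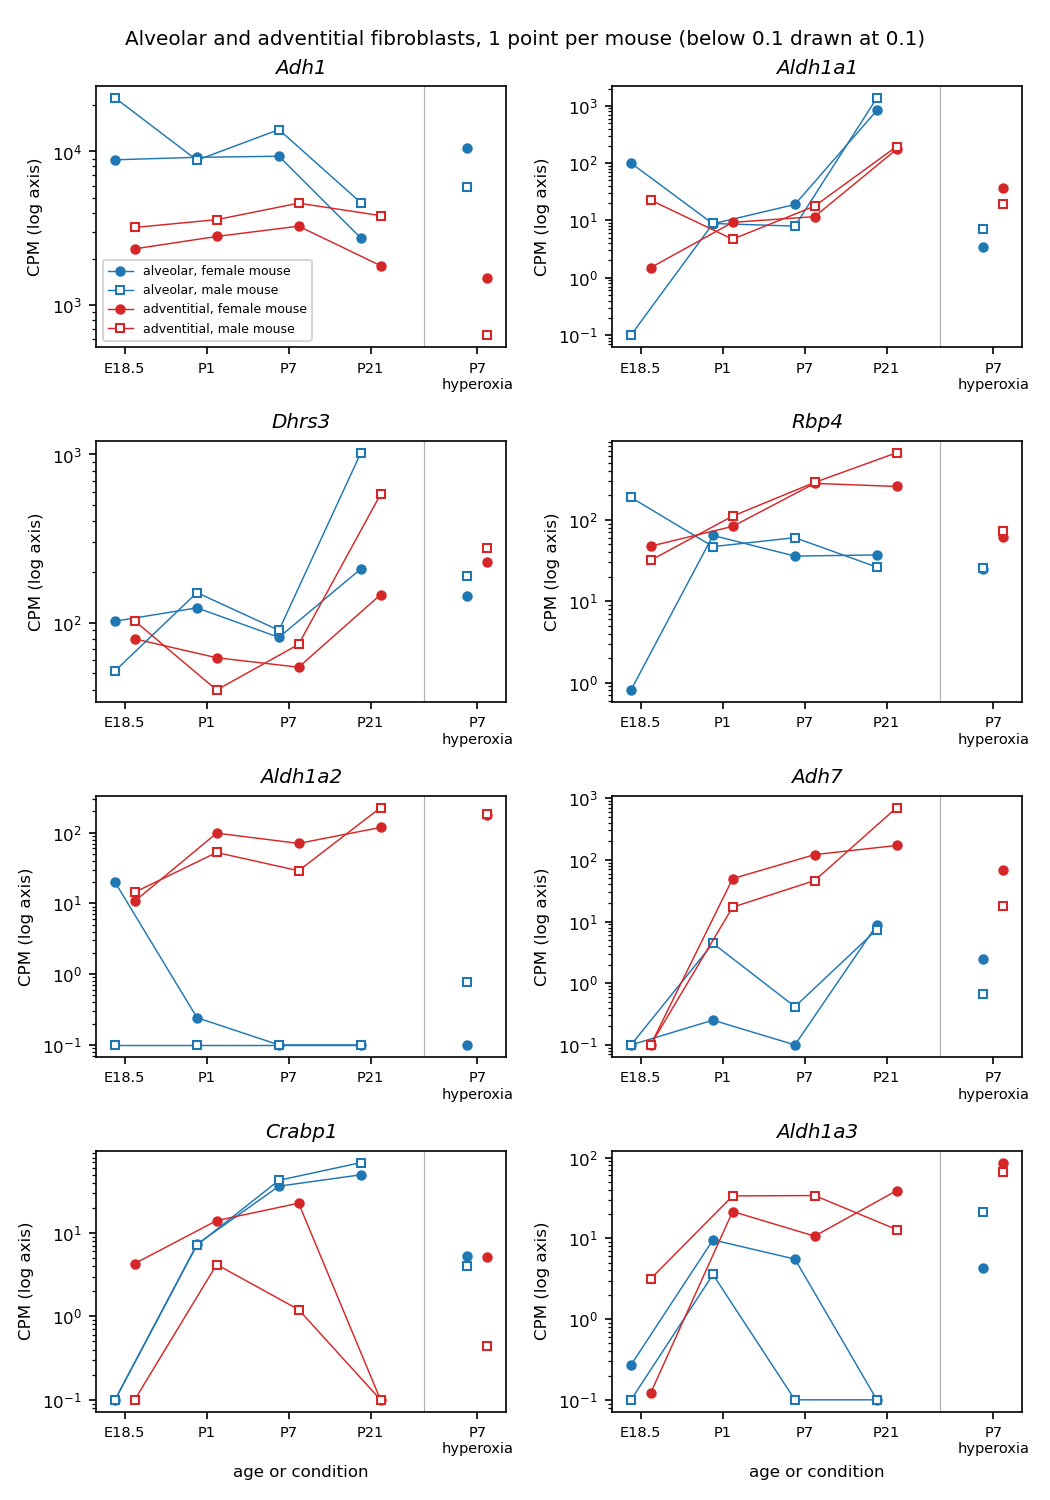
Levels of 8 of the genes in alveolar (blue) and adventitial (red) fibroblasts by age, in CPM on a log axis, 1 point per mouse; lines join different mice of the same sex, and the points at the right are the P7 mice in hyperoxia. Values below 0.1 are drawn at 0.1. Adventitial points of Adh7 run from 0 to 171 and 700 CPM, alveolar points of Crabp1 from 0 to 49.7 and 69.6 CPM, and Aldh1a1 is highest at P21 in both.

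Aldh1a1, one of the enzymes that make retinoic acid from retinaldehyde, was low in alveolar and adventitial cells until P7 and high at P21. The exception was the female at E18.5, where early alveolar cells held a level above the P21 values of pericytes, 98.1% of it from 1 of 14 cells, beside 0.0832 CPM in the male. In alveolar fibroblasts it stood at 19.0 and 7.96 CPM at P7, with a read in 3.67% and 4.08% of cells, and at 831 and 1375 CPM at P21, with a read in 82.9% and 71.0% (95% Wilson intervals 76.7% to 87.7% and 59.4% to 80.4%). After thinning of every cell to 100000 reads the shares at P21 were 80.7% and 70.1%. The P21 alveolar mice lay above every other group without overlap. The next groups were adventitial fibroblasts, at 174 and 194 CPM, airway smooth muscle, at 156 and 208 CPM, and vascular smooth muscle, at 39.0 and 317 CPM, all of P21, and these did not differ beyond their spread.

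The P21 mice were above the P7 mice in all 5 classes of cells that had both ages. In adventitial cells Aldh1a1 stood at 11.6 and 17.7 CPM at P7, in airway smooth muscle at 13.1 and 30.8, and in vascular smooth muscle and pericytes below 1 CPM. Pericytes of P21 held 69.5 and 39.6 CPM. Of 10971 genes tested in all 5 classes, 123 (1.12%) were likewise higher in both P21 mice in every class. The log2 differences were 6.56 (SE 2.15, edgeR adjusted p = 0.593) in alveolar, 3.66 (SE 1.03, adjusted p = 0.286) in adventitial and 2.96 (SE 0.69, adjusted p = 0.10) in airway smooth muscle cells. In vascular smooth muscle and pericytes, where P7 held 6 and 2 reads, they were 10.77 (SE 2.05, edgeR adjusted p = 0.195) and 9.95 (SE 3.78, adjusted p = 0.955). None passed the threshold of 0.05. The alveolar difference passed in edgeR without the female (adjusted p = 0.00694) or the male (adjusted p = 0.00622) of E18.5 and in a fit of only the mice compared (adjusted p = 0.0027). It also passed in DESeq2 and limma voom, and over all alternatives the adjusted p ran from 6.947e-08 to 1.

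**Figure D3:**
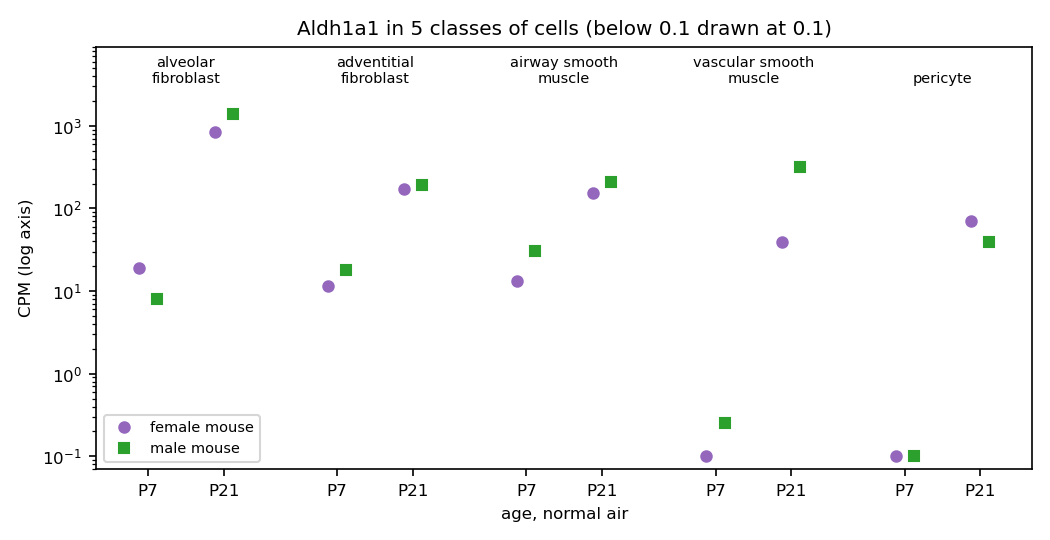
Aldh1a1 in 5 classes of cells at P7 and P21 in normal air, in CPM on a log axis, 1 point per mouse. In each class both P21 points lie above both P7 points, and alveolar fibroblasts reach 831 and 1375 CPM.

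Before birth Aldh1a1 was found mainly in the precursors of myofibroblasts and smooth muscle, at 167 and 147 CPM, with a read in 44.6% and 46.3% of cells, against 6.25 and 6.66 CPM in fibroblast precursors. Myofibroblasts held 88.3 and 32.5 CPM at P1 and 30.1 and 29.4 at P7. Aldh1a7 is a close copy of Aldh1a1 and holds 6.54% of the 50-base stretches of Aldh1a1, so reads of these stretches could belong to either gene. Aldh1a7 stood at 38.6 and 46.1 CPM in the same precursors and below 0.3 CPM in alveolar fibroblasts of P21. How reads of the shared stretches were counted was not tested.

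Aldh1a2, the enzyme that makes retinoic acid in most of the early embryo, was found in adventitial cells at each age. In adventitial cells it stood at 10.7 and 14.4 CPM at E18.5, 98.6 and 52.5 CPM at P1, 70.5 and 29.0 at P7 and 119 and 226 at P21. Alveolar fibroblasts held no more than 0.25 CPM from P1 to P21. The 72.2 and 58.8 CPM of vascular smooth muscle at P21 came from 1 cell in each mouse. Aldh1a3, the third enzyme, stood in adventitial cells at 0.122 and 3.16 CPM at E18.5, 21.5 and 33.5 CPM at P1, 10.6 and 33.9 at P7 and 38.9 and 12.9 at P21. The male values of P1 and P7 came almost wholly from 1 cell each, which held 98.0% and all of the reads.

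Per length at P21, the mice overlapped between Aldh1a1 and Dhrs3 in alveolar cells and between Dhrs3, Adh7 and Aldh1a2 in adventitial cells. Alveolar cells held Aldh1a1 at 223 ± 77.9 CPM per kilobase, Dhrs3 at 210.5 ± 197, Crabp1 at 74.4 ± 17.5 and Adh7 at 2.15 ± 0.263, with Aldh1a2 and Aldh1a3 below 0.01. Adventitial cells held Dhrs3 at 124 ± 104, Adh7 at 115 ± 98.8, Aldh1a2 at 76.0 ± 33.4, Aldh1a1 at 37.3 ± 2.97 and Aldh1a3 at 5.61 ± 3.99 CPM per kilobase. The length is that of all annotated exons of a gene joined. For Aldh1a1 it is 4937 bases, against 2358 in its longest coding transcript, and for Aldh1a2 2264 in both. The place of Aldh1a1 among the members therefore depends on the length used. The subtypes were named by the authors from clusters of these genes among others, so differences between subtypes are given without a test.

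Between neighbouring ages in normal air, edgeR's quasi-likelihood test on reads summed per mouse and class called 2 differences of members at an adjusted p under 0.05, both from E18.5 to P1. Crabp1 was called in alveolar cells with a log2 difference of 13.15 (SE 2.32, adjusted p = 0.0315), where 6.16% of 15670 genes were called and the median of all genes was 1.35. Since E18.5 had 0 reads the fitted value is no bound. Of all genes, 48.6% were higher in both P1 mice than in both of E18.5 in that comparison, in which E18.5 is 14 and 24 cells. The call was kept without either E18.5 mouse, but not without either mouse of P1, P7, P21 or hyperoxia, where the adjusted p was 0.0578 to 0.162, nor in a fit of only the 4 mice compared (adjusted p = 0.572).

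Adh7 was called in adventitial cells from E18.5 to P1, where 26 of 15289 genes (0.17%) were called. Its log2 difference was 14.15 (SE 1.89, edgeR adjusted p = 0.0346), which is likewise no bound. The call was lost without the female of E18.5 (adjusted p = 0.0969), the female of P1 (0.0685), the male of E18.5 (0.0523) or the male of hyperoxia (0.0507), and with only the mice compared (0.389). In 1 test over all 4 ages, Adh7 (edgeR adjusted p = 0.0108) and Rbp4 (adjusted p = 0.0216) were called in adventitial cells, where 1.1% of genes were. Rbp4 was no longer called by edgeR without the male of P21 (adjusted p = 0.0522) or in a limma voom fit (adjusted p = 0.490). No other member was called over all ages in any class, and the other adventitial values nearest the threshold were Aldh1a1 at 0.0733, Aldh1a2 at 0.0772 and Dhrs3 at 0.0827.

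Other members differed between ages with an unadjusted p under 0.05 in edgeR and did not pass after adjustment over all genes. From E18.5 to P1, adventitial cells were higher in Aldh1a2 by 2.49 (SE 0.63, adjusted p = 0.243), in Aldh1a3 by 4.33 (SE 1.26, 0.332) and in Rbp4 by 1.21 (SE 0.44, 0.479) on the log2 scale. The median of the 9 members there was 2.49 against 0.16 for all genes. From P1 to P7, Rbp4 was higher in adventitial cells by 1.56 (SE 0.44, adjusted p = 0.829) and Crabp1 in alveolar cells by 2.45 (SE 0.99, adjusted p = 1). Both mice of the later age were above both of the earlier one in each of these, and 5 members in all were higher so from E18.5 to P1 in adventitial cells, where 23.5% of genes were.

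From P7 to P21 the alveolar cells were higher in Dhrs3 by 2.69 (SE 0.76, edgeR adjusted p = 0.555) and in Adh7 by 7.26 (SE 2.65, 0.664), and had a log2 difference of -1.63 in Adh1 (SE 0.48, 0.555). Adventitial cells were higher in Dhrs3 by 2.40 (SE 0.55, adjusted p = 0.165), in Adh7 by 2.83 (SE 0.90, 0.382) and in Aldh1a2 by 1.44 (SE 0.63, 0.483). These values moved with single mice: Adh7 ran from 0.32 without the male of P21 to 4.06 without the female, and Dhrs3 from 1.23 to 3.15 without the same mice, and both passed in edgeR without that female (adjusted p = 0.0300 and 0.0398). Aldh1a2 ran from 0.57 without the male to 2.67 without the female of P7. Crabp1 had a log2 difference of -10.87 in adventitial cells (SE 2.55, edgeR adjusted p = 0.176). It had a read in 3 of 50 and 2 of 56 of these cells at P7. With 1 read at P21 the fitted value rests on the floor and is no bound. In airway smooth muscle Dhrs3 was higher by 6.86 (SE 2.17, edgeR adjusted p = 0.283). The value ran from 4.81 to 13.29 with a mouse left out, the latter without the female of P7. The P7 level behind it was low, at 0.449 ± 0.614 CPM (SD, n = 2) from 100 reads in all. The 3 members Adh7, Aldh1a1 and Dhrs3 were higher in both P21 mice in both alveolar and adventitial cells, as were 8.16% of 14664 genes. Alveolar Adh7 had 59 reads at P7 and, as given above, came from a small number of mature cells at P21. The median of the 9 members was 1.44 in adventitial cells against 0.10 for all genes, and 0.56 against -0.04 in alveolar cells.

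Counted by whether both mice of the later age lay beyond both of the earlier one, alveolar cells had 5 of 9 members higher from E18.5 to P1 and 1 lower (Adh1), where 48.6% and 8.62% of genes were. These counts use the libraries of a class, which have a TMM scaling of their own, and on the levels of the subtypes given above Adh1 overlapped between E18.5 and P1. From P1 to P7 they had 2 higher (Adh1 and Crabp1) and 2 lower (Stra6 and Dhrs3), beside 18.1% and 22.5% of genes. From P7 to P21 they had 5 higher (Aldh1a1, Adh7, Stra6, Crabp1 and Dhrs3) and 1 lower (Adh1), beside 21.0% and 22.2%. Among these, Stra6 had 4 reads at P7 and 4 at P21, so its count as higher rests on values at the floor. Adventitial cells had 5 higher and 1 lower (Dhrs3) from E18.5 to P1, beside 23.5% and 15.6%, then 2 higher (Aldh1a1 and Rbp4) and 0 lower from P1 to P7, beside 15.2% and 19.7%. From P7 to P21 they had 4 higher and 1 lower (Crabp1), beside 23.2% and 16.1%.

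The contractile cells and pericytes had 4 or 5 members that could be tested. In airway smooth muscle Aldh1a1 and Dhrs3 were higher from P7 to P21 and 0 were lower, beside 19.7% and 23.7% of genes. From P1 to P7 Aldh1a2 was lower, with 237 reads at P1 and 1 at P7, and 0 were higher, beside 15.9% and 21.8%. Vascular smooth muscle had Aldh1a1 and Aldh1a2 higher and 0 lower from P7 to P21, beside 16.8% and 20.1%, and Adh1 lower and 0 higher from P1 to P7, beside 14.9% and 19.0%. Pericytes had Aldh1a1 and Stra6 higher and 0 lower from P7 to P21, beside 24.4% and 16.2%. From P1 to P7 they had Aldh1a1 higher, with 0 reads at P1 and 2 at P7, and Adh1 lower, beside 17.0% and 15.8%. From E18.5 to P1 they had Dhrs3 lower and 0 higher, beside 15.1% and 18.3%. Myofibroblasts from P1 to P7 had Rbp4 and Dhrs3 higher and Aldh1a1 lower, beside 25.8% and 15.4%. Dhrs3 had 0 reads there at P1 and stood at 2.34 ± 3.28 CPM at P7 (SD, n = 2).

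The edgeR test called 0 members in these other comparisons, and few genes of any kind. From P7 to P21 it called 0.0702% of genes in alveolar, 0.124% in adventitial, 1.13% in airway smooth muscle, 0.0886% in vascular smooth muscle and 0.0504% in pericyte cells. From P1 to P7 it called 0.0% in all 6 classes, and from E18.5 to P1 in pericytes 0.042%. Over all ages it called 0.345% of genes in alveolar, 1.33% in airway smooth muscle, 0.0644% in vascular smooth muscle and 0.126% in pericyte cells. DESeq2 called 18 member differences between neighbouring ages and limma voom 14, and both also called more of all genes. From E18.5 to P1 limma voom called 3664 genes in alveolar cells, beside 966 with edgeR. DESeq2 called 787 in adventitial cells, beside 26 with edgeR. An unadjusted p under 0.05 in edgeR was found for 4, 1 and 5 of 9 members in adventitial cells from E18.5 to P1, P1 to P7 and P7 to P21, beside 1411, 856 and 1554 of 15289 genes. In alveolar cells it was found for 1, 1 and 4 of 9, beside 3287, 370 and 1118 of 15670 genes.

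In hyperoxia at P7, early adventitial fibroblasts held more Dhrs3, Aldh1a2 and Aldh1a3 and less Rbp4 and Adh1 than in normal air, without overlap of the mice. No member and no gene passed the adjusted threshold in any of the 5 classes with edgeR (0.0% of genes tested). At an unadjusted p under 0.05 there were 1224 genes in adventitial, 420 in alveolar, 847 in myofibroblast, 418 in airway and 319 in vascular smooth muscle cells. DESeq2 called 381, 240, 377, 126 and 215 genes at its adjusted threshold, and limma's voom fit 354, 747, 248, 46 and 85. Of the members, DESeq2 called 5 differences and the voom fit 2. The values below are therefore differences between pairs of mice that were not called.

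Dhrs3 in early adventitial cells stood at 229 and 276 CPM in hyperoxia and 54.4 and 74.4 in normal air, with a read in 53.2% and 66.4% of cells against 28.6% and 30.9%. The log2 difference was 2.02 (SE 0.54, edgeR adjusted p = 0.621). In early alveolar cells the hyperoxia mice were also higher, at 144 and 189 CPM against 81.9 and 90.1. Of 14664 genes, 9.23% were higher in both hyperoxia mice in both classes. The subtype that the labels call male hyperoxic fibroblast, found in 1 mouse, held 354 CPM of Dhrs3, with a read in 94.5% of its 55 cells.

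Rbp4 in early adventitial cells stood at 61.7 and 72.6 CPM in hyperoxia against 280 and 288 in normal air, a log2 difference of -2.08 (SE 0.45, edgeR adjusted p = 0.395). The share of cells with a read overlapped, at 37.6% and 57.8% against 55.1% and 58.2%. It was also lower in both hyperoxia mice in early alveolar cells, at 24.9 and 25.9 CPM against 35.8 and 60.3, as were 7.79% of genes in both classes. Adh1 in early adventitial cells was at 1502 and 637 CPM against 3262 and 4607, a log2 difference of -1.78 (SE 0.49, edgeR adjusted p = 0.621). Early alveolar cells held 10593 and 5852 CPM of Adh1, a range that overlapped the 9309 and 13882 CPM of normal air. Crabp1 in early alveolar cells was at 5.27 and 4.07 CPM against 36.3 and 42.7, a log2 difference of -3.06 (SE 1.02, edgeR adjusted p = 1), below the 7.30 and 7.16 CPM of P1.

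Aldh1a2 was higher in hyperoxia in cell types with and without it in normal air. Myofibroblasts held 70.8 and 130 CPM in hyperoxia, with a read in 34.5% and 40.0% of cells, against 0.0685 and 2.60 CPM, with a read in 1 of 155 and 2 of 184 cells. After thinning to 100000 reads the hyperoxia shares were 34.5% and 33.3% and those of normal air 0% and 0.562%. The log2 difference was 6.55 (SE 2.40, edgeR adjusted p = 0.760). Vascular smooth muscle held 37.2 and 41.2 CPM from 2 cells with a read in each mouse, against 0.566 and 2.33 CPM. Both hyperoxia mice were above both others in adventitial cells, myofibroblasts and vascular smooth muscle, as were 421 of 11825 genes (3.56%). In myofibroblasts Adh1 was also higher, at 164 and 122 CPM against 87.2 and 51.1 (log2 1.17, SE 0.36, edgeR adjusted p = 0.686).

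**Figure D4:**
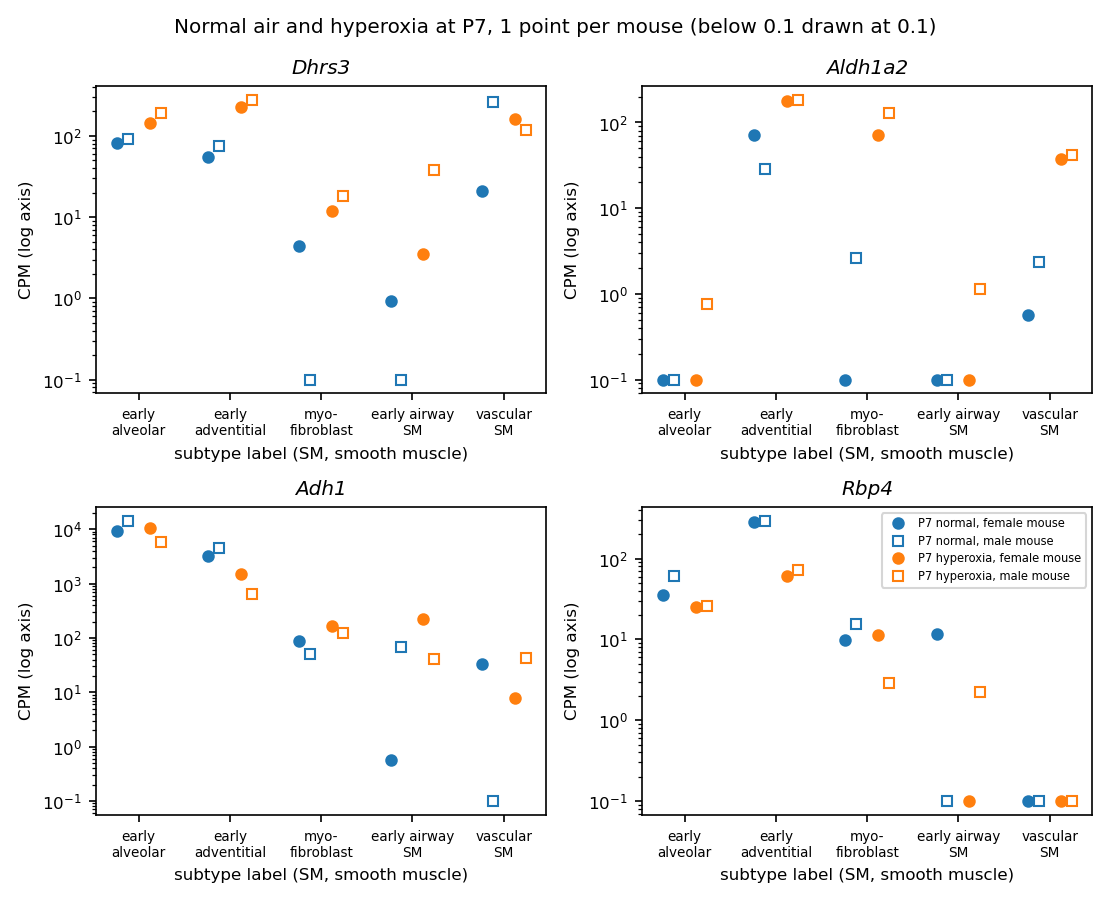
Dhrs3, Aldh1a2, Adh1 and Rbp4 in 5 subtypes at P7 in normal air (blue) and hyperoxia (orange), in CPM on a log axis, 1 point per mouse. Aldh1a2 in myofibroblasts is below 3 CPM in normal air and at 70.8 and 130 CPM in hyperoxia, and Rbp4 in early adventitial cells is at 280 and 288 and at 61.7 and 72.6 CPM; values below 0.1 are drawn at 0.1.

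In early adventitial cells Aldh1a2 stood at 178 and 183 CPM in hyperoxia against 70.5 and 29.0. The class libraries held 191 and 188 against 109.9 and 26.5 CPM of the plain total of reads, a log2 difference of 1.41 after TMM scaling (SE 0.62, edgeR adjusted p = 0.621). It ran from 0.58 without the male to 2.69 without the female of P7 in normal air. Mesothelial cells, which line the lung surface and are known to express Aldh1a2, moved with this value. Of all adventitial cells, 17 held at least 10 reads of 6 or 7 of the 7 mesothelial markers in the table (Msln, Upk3b, Wt1, Lrrn4, Upk1b, Krt19 and Gpm6a), and 15 of these were hyperoxia cells, 6 of 109 in the female and 9 of 116 in the male. In normal air there was 1 such cell in the female of P7 and 1 in the female of P1. They had a read of Aldh1a2 in every cell, at 1665 and 1077 CPM of the plain total of reads in the hyperoxia mice, and no read of Aldh1a3, Adh7 or Crabp1.

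Without these cells the adventitial hyperoxia mice held 124 and 111 CPM of Aldh1a2 and the mice in normal air 88.3 and 26.5 CPM, on the plain total, still without overlap. The log2 difference was then 1.00 and its unadjusted p was no longer under 0.05 (edgeR adjusted p = 0.701). On the same plain total, Aldh1a1 stood at 39.3 and 20.0 CPM in hyperoxia against 10.5 and 16.2 with all cells of the class. Without the cells with mesothelial markers it came to 18.8 and 11.1 against 10.8 and 16.2 CPM, and the mice overlapped. Rbp4 and Dhrs3 kept log2 differences of -1.96 and 2.13, and Adh1 of -1.67. In myofibroblasts the summed mesothelial markers were at 0.04 to 1.54 CPM in hyperoxia.

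**Figure D5:**
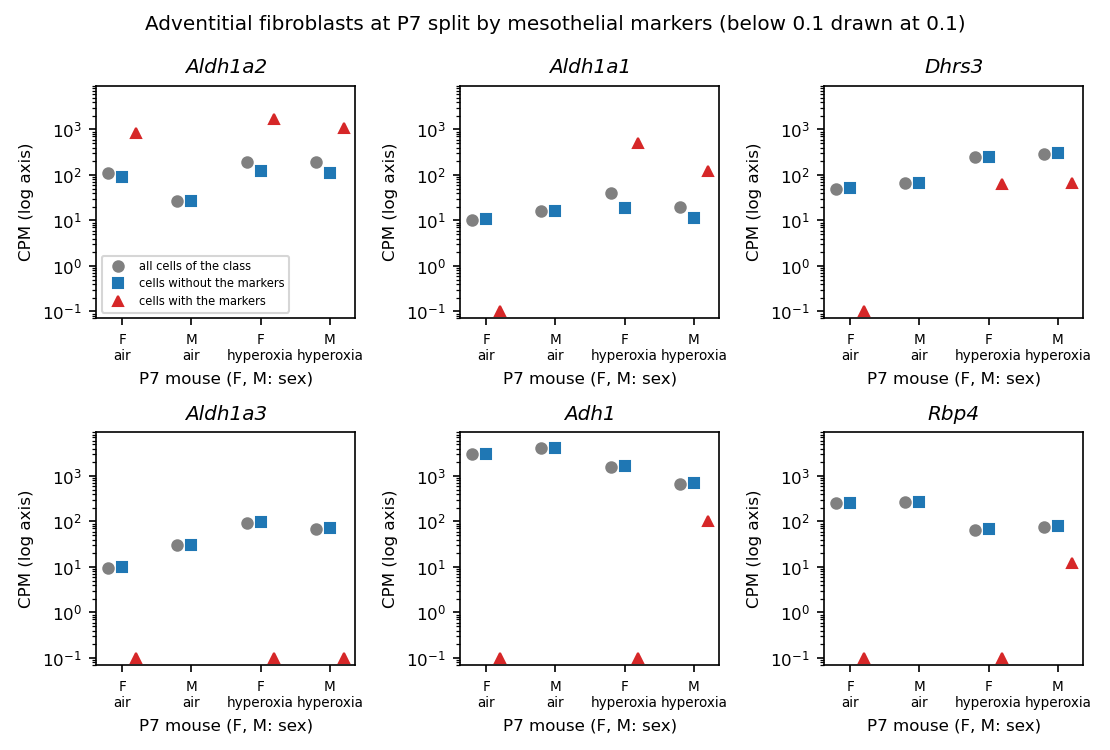
Adventitial cells of the 4 mice at P7, in CPM of the plain read total on a log axis: all cells (grey), cells without mesothelial markers (blue) and cells with them (red). The red points are at 1665 and 1077 CPM for Aldh1a2 in hyperoxia and at the floor for Aldh1a3; the male in normal air had no such cell.

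Aldh1a3 in early adventitial cells stood at 86.6 and 65.6 CPM in hyperoxia against 10.6 and 33.9, with a read in 29.4% and 30.2% of cells (95% Wilson intervals 21.6% to 38.5% and 22.6% to 39.1%) against 4.08% and 1.82% (1.13% to 13.7% and 0.322% to 9.61%). After thinning to 100000 reads the shares were 26.4% and 25.9% against 4.08% and 1.89%. Endothelial markers also moved with the adventitial class, at 24.4 and 66.3 CPM summed in hyperoxia against 0.165 and 0.301, with 3 and 5 cells that held at least 3 of the 6 markers; their part in the result was not tested. At least 3 of 7 epithelial markers were found in 4 of 45 myofibroblasts, 3 of 116 early adventitial cells, 3 of 22 vascular smooth muscle cells and 13 of 55 cells of the male hyperoxic subtype, all of the hyperoxia male, beside 1 of 49 early adventitial cells of the female in normal air. Summed, they were at 5.25 to 23.8 CPM against 19.4 to 31.4 in normal air in myofibroblasts, 43.6 to 46.6 against 21.7 to 76.0 in early adventitial cells and 91.4 to 107 against 37.8 to 82.6 in vascular smooth muscle, and their part in the results for hyperoxia was not tested either. Adventitial cells had 4 members higher and 2 lower in both hyperoxia mice, where 26.5% and 18.7% of genes were, and alveolar cells 2 higher and 3 lower, where 22.9% and 20.2% were. Of the members tested elsewhere in hyperoxia, 4 of 5 in myofibroblasts (Aldh1a1, Aldh1a2, Adh1 and Dhrs3) were higher without overlap, where 23.1% of genes were, and none was lower, where 23.9% were. In airway smooth muscle 2 of 5 (Aldh1a2 and Dhrs3) were higher beside 16.6% of genes, and none was lower beside 19.9%. Aldh1a2 had 1 read there in normal air and 26 in hyperoxia, so its count as higher rests on values near the floor. In vascular smooth muscle 1 of 4 (Aldh1a2) was higher beside 18.6% of genes, and none was lower beside 17.9%. The median over the members was 1.07 in adventitial cells against 0.12 for all genes, and 0.94 against 0.06 in alveolar cells.

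Whether a member's difference was itself unlike in alveolar and adventitial cells was tested by an interaction term in a fit of both classes that blocks on the mouse, and 0 members were called, at 0.0% of genes for P7 to P21 and hyperoxia and 4.68% for E18.5 to P1. At an unadjusted p under 0.05 there were 2, 2 and 1 members in the 3 comparisons from E18.5 to P1, from P7 to P21 and for hyperoxia, beside 2822, 687 and 367 of 16455 genes, and 1 interaction passed with DESeq2. Adh1 had an adventitial minus alveolar value of 0.92 from E18.5 to P1 (edgeR adjusted p = 0.135), of 1.11 from P7 to P21 (adjusted p = 0.869) and of -1.43 in hyperoxia (adjusted p = 1). Dhrs3 had -1.72 from E18.5 to P1 (edgeR adjusted p = 0.168), and Crabp1 -10.46 from P7 to P21 (adjusted p = 0.876). The Crabp1 value rests on 1 adventitial read at P21.

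Among 58 further genes of the pathway and of the dehydrogenase families, 47 were in the table. From E18.5 to P1 in alveolar cells 1 of 42 tested was called, where 6.16% of all genes were. It was Lrat, which esterifies retinol for storage, and it was called upward. It had 0 reads at E18.5 and 7.12 to 14.6 CPM at P1 (log2 13.86, SE 2.52, edgeR adjusted p = 0.0325). Lrat reached 254 to 1386 CPM in alveolar fibroblasts of P21 and was called over all ages (edgeR adjusted p = 0.0477), where 0.345% of genes were. From P7 to P21 in adventitial cells 1 of 43 was called, where 0.124% of all genes were. It was Aldh3a1, at 66.6 to 282 CPM at P21 (edgeR adjusted p = 0.0469). In airway smooth muscle 2 of 37 were called upward from P7 to P21, where 1.13% of genes were: Lpl, a lipase, by 5.60 (SE 1.01, edgeR adjusted p = 0.0381) and Aldh2, the mitochondrial acetaldehyde dehydrogenase, by 2.17 (SE 0.38, adjusted p = 0.0316). Lpl and Aldh2 were also called over all ages in adventitial cells, where 1.1% of genes were. Ces1d, an esterase, was called over all ages in airway smooth muscle, where 1.33% were. None of the 47 was called in hyperoxia, where 0.0% of all genes were.

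The binding proteins Crabp2 and Rbp7 had means of 0.611 and 0.0479 CPM. Of the retinoic acid response genes, Rarres2 and Tgm2 had means of 794 and 111 CPM, while Rarb had a mean of 3.34 CPM and reached 25.5 CPM at most. The enzymes that clear retinoic acid were scarce: Cyp26b1 had a mean of 0.922 CPM and Cyp26a1 of 0.00809 CPM. Among other dehydrogenases Dhrs7, Dhrs4 and Rdh5 had the highest means, at 111, 83.9 and 69.2 CPM, and among other alcohol and aldehyde dehydrogenases Aldh2, Adh5 and Aldh7a1, at 286.5, 204 and 115 CPM. The receptors Rara, Rxrb and Rxra had means of 31.8, 23.0 and 18.7 CPM.

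The genes most like each member over the 64 libraries were found by Pearson correlation of log2(CPM + 1) among 11946 genes, a description in which libraries share mice and depth. Adh1 was most like Slc38a5 (r = 0.908), Ablim3 (0.890) and 6030408B16Rik (0.874). Adh7 was most like Itgbl1 (0.855), Ces2g (0.831) and Prlr (0.826), and Rbp4 like Aspa (0.780), Sned1 (0.762) and Tspan11 (0.760). Dhrs3 was most like Slc1a3 (0.827), Vcam1 (0.810) and Limch1 (0.788), and Crabp1 like Kcnk13 (0.789), Adrb3 (0.775) and Upk1b (0.759). Aldh1a1 was most like Ntng2 (0.718) and Fgf2 (0.685), Aldh1a2 like Gxylt2 (0.729), Pi16 (0.686) and Sulf2 (0.678), and Aldh1a3 like AW551984 (0.779), Serpinf1 (0.771) and Acp5 (0.740). Between members the highest value was that of Adh7 and Rbp4 (0.702), followed by Aldh1a3 and Adh7 (0.675) and by Adh1 and Rbp4 (0.662). Stra6 reached 10 CPM in no library and was not ranked.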

How the data were processed

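The authors deposited a table of read counts per gene and cell from plate-based single-cell libraries made with Tn5 transposase; per the submitters' processing notes STAR 2.5.2b and HTSeq 0.10 were used and the build named is GRCh38, a human name given for mouse cells. No molecular identifiers were counted, so reads of a cell are not independent molecules. All 5480 columns matched 1 labelled cell, and 0 columns were left unused.

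Counts were summed per mouse and author-named subtype (at least 10 cells) for levels, and per mouse and class, which joins early and mature subtypes, for tests. edgeR 4.0.16 (TMM factors, default filter on low counts, quasi-likelihood test, a term for sex, all 5 groups in the fit, Benjamini-Hochberg adjustment over all genes tested) ran in R 4.3.3, with DESeq2 1.42.0 and limma 3.58.1 as alternatives, after tests on simulated data. A share is the percent of cells with a read, with Wilson intervals at 95%; a floor is 3 reads. For shares at a common depth reads were drawn down to 100000 per cell, and 168 shallower cells were not used.

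The 9 members, the gene lists and the tests were chosen with earlier results of these data known. Named are all members, pathway genes that passed the test, the 3 with the highest mean level in a pathway list, and the 3 genes most like each member. Some results these rules select are not reported here. A statistic is printed for members with an unadjusted p under 0.05. Fits without cells that carry mesothelial markers were added after seeing the data.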

Additional observations from a re-analysis of the deposited data

Results flagged for a closer look

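The differences below had opposite directions in classes of cells under the same contrast, each with both mice of one group beyond both of the other and a log2 value of at least 1 either way; whether the classes differ was tested only for adventitial against alveolar fibroblasts. Aldh1a1 from P1 to P7 had a log2 difference of 3.32 in pericytes, where it was below 1 CPM at both ages, and of -1.04 in myofibroblasts. In hyperoxia Aldh1a1 had 1.07 in adventitial fibroblasts and 1.02 in myofibroblasts, against -1.11 in alveolar fibroblasts; the adventitial minus alveolar value was 2.25 (SE 2.72, edgeR adjusted p = 1). Without the cells that carry mesothelial markers the adventitial mice of the groups overlapped. Adh1 in hyperoxia had 1.17 in myofibroblasts against -1.78 in adventitial fibroblasts.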

How the results depend on the processing

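The number of member differences called between neighbouring ages was 2, and came to 18 with DESeq2, 4 without a filter on low counts, 5 with cells thinned and 14 with limma voom; with 1 mouse left out it was 0 to 5 (3 without the female of P21). Over all ages it was 2, and 14 with DESeq2, 8 without the filter, 9 with cells thinned, 5 without a term for sex, 10 with limma voom and 1 to 6 with a mouse left out. For hyperoxia it was 0, and 5 with DESeq2, 1 with only the mice compared, 2 with limma voom and 0 to 1 with a mouse left out. For the difference between alveolar and adventitial cells it was 0, and 1 with DESeq2, 1 with cells thinned and 0 to 4 with a mouse left out (3 without the male of E18.5). Counts over all genes moved too: 966 in alveolar cells from E18.5 to P1 came to 3603 with DESeq2, 3664 with limma voom, 1489 without a term for sex, 11 with only the mice compared and 0 to 4846 with a mouse left out, and 26 in adventitial cells to 787, 135, 32, 0 and 5 to 55. Over all ages 168 in adventitial cells came to 1208 with DESeq2, 669 with limma voom and 28 to 218 with a mouse left out. The cause of these shifts was not tested. No member difference with an unadjusted p under 0.05, the ones that were recomputed, turned direction under an alternative. No paired analysis was possible because the labels give no replicate numbers shared between groups; each group has 1 female and 1 male, and sex is a term of the fit. With 1 mouse left in a group, that mouse is assumed to vary like the others. With 1 female and 1 male per group and 2 to 4 residual degrees of freedom, a small number of cells can set a level, and the E18.5 alveolar comparison, from 14 and 24 cells, keeps 1 mouse of E18.5 with at least 20 cells per library; leaving out the female of E18.5 gave the value for it.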
